A study of Mus musculus with 6 samples.

Results

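T cell receptor signalling genes were followed in RNA from regulatory T cells (Tregs), a CD4 lineage that holds immune responses in check, with and without Nfkb2. The genes were chosen by name, for their known role at the receptor, and were 42 of the 55573 genes listed in the count files. All 42 were found once each in the GRCm38 annotation and all 42 passed the filter on low counts, among 13347 genes tested. Nfkb2-/- Tregs, which carry a knockout of Nfkb2 (the gene encodes p100, the precursor of the NF-kB subunit p52), gave 3 libraries. Wild-type Tregs gave 3 libraries as well. Cells of both genotypes were sorted from the spleen of bone marrow chimeras called bi-parental, mice whose blood cells derive from transplanted marrow, and were kept for some time in medium, with no stimulus named, before lysis. The age and sex of the mice and the hosts of the chimeras are not given in the labels, and the knockout is not described as limited to a cell type. The labels call the samples biological repeats without saying that each came from a separate chimera, so p-values measure the spread between these samples.

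The T cell receptor binds peptide held by an MHC molecule through its alpha and beta chains and signals through the CD3 chains and CD247 (zeta). Lck phosphorylates these chains, Zap70 docks on them and phosphorylates the scaffold Lat, and adaptors gathered at Lat start calcium, Ras and NF-kB signalling, while phosphatases, ubiquitin ligases and diacylglycerol kinases damp the signal. Tregs need signals of this receptor for their formation in the thymus and for their suppressive function.

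Library totals were 12005273 to 14359439 counts in Nfkb2-/- and 12499343 to 17278521 counts in wild type. The unit of level is CPM, a count divided by the TMM-adjusted library size, and a gene is called where edgeR's quasi-likelihood test gave an adjusted p under 0.05 over all 13347 genes tested. Nfkb2 itself had 269, 324 and 271 CPM in Nfkb2-/-, against 558, 545 and 556 CPM in wild type, so its counts were lowered but not absent. Wild-type replicate 1 stood apart: across genes, which are not independent replicates, r of log2(CPM + 1) was 0.953 to 0.965 between it and each of the others, against 0.977 to 0.995 for all other pairs. The genotypes also differed in Xist, at 841, 883 and 592 CPM in Nfkb2-/- replicates 1 to 3 and 1.94 to 16.5 CPM in wild type. The sum of 4 Y-linked genes was 40.0, 138 and 275 CPM in Nfkb2-/- replicates 1 to 3 and 465 to 498 CPM in wild type. Sex of the donor cells and genotype therefore cannot be told apart. The Nfkb2-/- libraries, each with counts of both Xist and Y-linked genes, were also unlike each other in them, and the cause was not tested. The 6 Treg markers, Foxp3 among them, summed to 3559 to 3893 CPM in Nfkb2-/- and 2868 to 4355 CPM in wild type, and all 6 were present in every library. Singly, Ikzf2 was higher in every Nfkb2-/- library (722 to 823 CPM, against 436 to 539 CPM in wild type). Il2ra was lower in every Nfkb2-/- library (410 to 496 CPM, against 525 to 635 CPM in wild type), and the other Treg markers overlapped. Of markers of other cells, 12 B cell genes summed to 532 to 594 CPM in Nfkb2-/- and to 362, 1020 and 997 CPM in wild-type replicates 1 to 3. Most of this came from Ighm, at 494 to 540 CPM in Nfkb2-/- and 258 to 776 CPM in wild type. The 2 CD8 genes summed to 10.4 to 13.7 CPM in Nfkb2-/- and 13.3 to 22.7 CPM in wild type. Other lists summed to 4.88 to 7.08 CPM in Nfkb2-/- and 5.34 to 5.80 CPM in wild type for 5 gamma-delta genes, to 20.1 to 42.5 and 15.6 to 68.4 CPM in the same order for 9 myeloid genes, to 21.7 to 37.9 and 30.8 to 56.2 CPM for 6 red cell and platelet genes, of which Ppbp had no count, and to 99.6 to 165 and 134 to 209 CPM for 4 stromal genes, nearly all of it Pecam1. The sums of 6 dendritic cell genes, 88.0 to 126 CPM in Nfkb2-/- and 21.8 to 55.0 CPM in wild type, and of 6 NK cell genes, 19.7 to 30.2 CPM in Nfkb2-/- and 8.90 to 15.4 CPM in wild type, did not overlap. In Nfkb2-/- most of these sums came from Zbtb46 and Eomes. Of the other dendritic cell genes, Siglech reached 3.75 CPM in Nfkb2-/-, against 20.8 CPM in wild type, and Flt3 at most 0.814 CPM in Nfkb2-/-, against 3.96 CPM in wild type (both highest in wild-type replicate 2). Clec9a, Xcr1 and Cd209a were at most 2.94 CPM in every library. Of the other NK cell genes, Prf1 was at 2.67 to 7.78 CPM in Nfkb2-/- and 3.34 to 6.30 CPM in wild type, and Ncr1, Klrb1c, Klra8 and Gzma were at most 1.35 CPM in every library. The part of these differences in the results that follow was not tested.

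None of the 42 genes was called between the genotypes, where 1.42% of all genes tested were, 1.01% higher and 0.405% lower in Nfkb2-/-. The test left 5 of the 42 at an unadjusted p under 0.05, 3 higher and 2 lower in Nfkb2-/-, or 11.9% against 13.6% of all genes tested (7.25% higher and 6.35% lower). With the replicate number as a block edgeR again called none of the 42, against 2.17% of all genes (1.47% higher and 0.697% lower), and DESeq2 called 2, 1 in each direction, against 5.09% (3.21% higher and 1.89% lower). Log2 fold changes ran from -0.63 to 0.85, 18 were positive and 24 negative, and their median was -0.04, against -0.03 over all genes tested. The median size of the log2 fold change was 0.21 in the members and 0.21 in all genes tested. No member had a log2 fold change over 1 in size, against 6.12% of all genes tested. Members were mostly abundant, with 1 below the all-gene median of 20.6 CPM, so that share and the next compare genes of unlike level. In 38 of the 42 the 95% interval of the log2 fold change lay between -1 and 1, against 64.4% of all genes tested. The exceptions were Lat, Trat1, Sit1 and Dgka, whose intervals reached past a 2-fold difference on the lower side in Lat (-1.12) and Dgka (-1.08) and on the upper side in Trat1 (1.25) and Sit1 (1.35). The genotypes did not overlap in 9 members, 4 higher (Cd6, Trat1, Nfatc2 and Ubash3a) and 5 lower (Csk, Grap2, Rasgrp1, Rcan1 and Dgkz) in Nfkb2-/-, or 21.4%, against 20.6% of all genes tested (10.7% higher and 9.9% lower). In RNA of sorted cells in bulk, fewer cells of a type and less RNA per cell cannot be told apart.

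**Figure D1:**
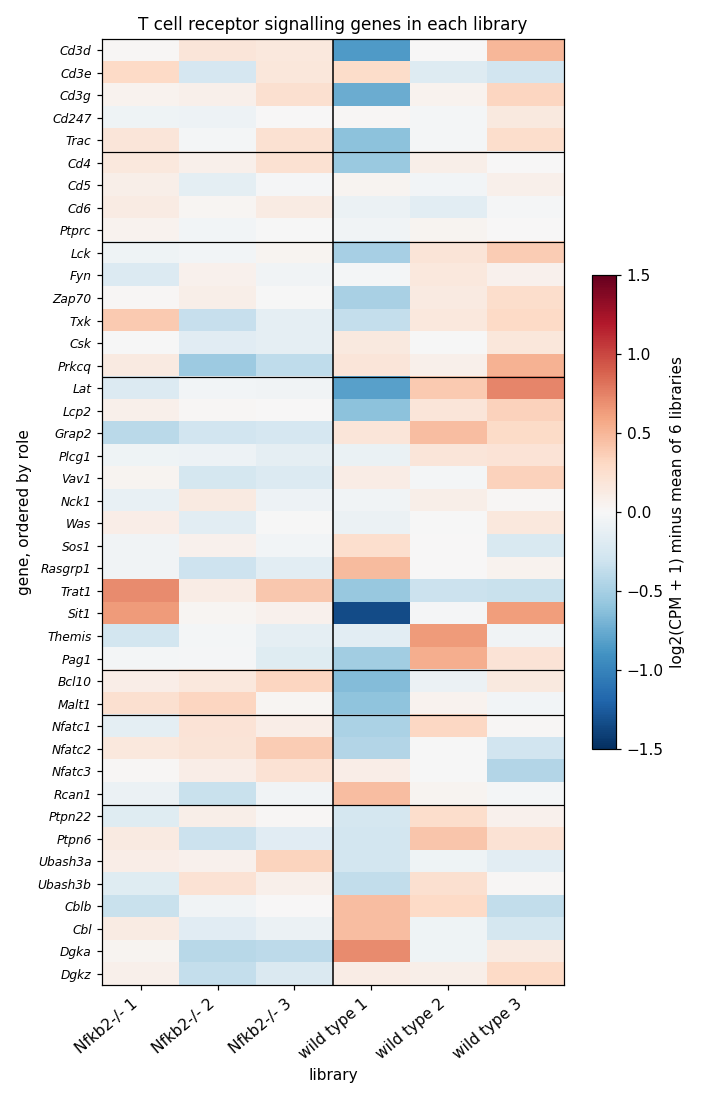
Level of each of the 42 genes in each of the 6 libraries, as log2(CPM + 1) minus the gene's mean over the libraries; rows are ordered by role with lines between roles, and the vertical line divides Nfkb2-/- (left) from wild type (right). Wild-type replicate 1 held the lowest value of 20 genes and the highest of 6.

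The receptor complex was measured through its constant alpha chain Trac and the signalling chains Cd3d, Cd3g, Cd3e and Cd247, and none of these 5 genes passed the test between genotypes. Cd3d, the CD3 delta chain, was at 213, 239 and 236 CPM in Nfkb2-/-, against 116, 211 and 296 CPM in wild type. Cd3g, the gamma chain, was at 248, 251 and 281 CPM in Nfkb2-/-, against 142, 248 and 299 CPM in wild type. In both genes the lowest library was wild-type replicate 1 and the highest wild-type replicate 3, with all Nfkb2-/- libraries between them. The ratio of Cd3d to Cd3g CPM was 0.858, 0.953 and 0.838 in Nfkb2-/- and 0.818, 0.850 and 0.992 in wild type. What the pair shared was mainly the rise from wild-type replicate 1 to 3. That rise was not particular to them: Lck (297, 482 and 548 CPM) and Lat (177, 408 and 516 CPM) had it too. Both lie on chromosome 9 with 1354 bases between them (Cd3g at 44969572 to 44980431 on the minus strand, Cd3d at 44981786 to 44987339 on the plus strand), and they are read away from each other. Their promoters are RefSeq sequences of GRCm38.p6, from 250 bases before to 50 after the annotated start, 5′ to 3′ along each gene. Capitals mark matches to the E-box CAGGTG on either strand (printed as CACCTG where it lies on the other strand). The promoters cover chr9:44981536-44981835 (plus strand) and chr9:44980382-44980681 (minus strand).
Cd3d: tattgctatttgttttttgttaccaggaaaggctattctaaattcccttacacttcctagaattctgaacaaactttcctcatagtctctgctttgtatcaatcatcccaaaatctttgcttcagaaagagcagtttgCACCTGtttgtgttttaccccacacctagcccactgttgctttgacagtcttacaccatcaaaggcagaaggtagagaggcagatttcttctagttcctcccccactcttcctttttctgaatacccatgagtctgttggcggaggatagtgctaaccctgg
Cd3g: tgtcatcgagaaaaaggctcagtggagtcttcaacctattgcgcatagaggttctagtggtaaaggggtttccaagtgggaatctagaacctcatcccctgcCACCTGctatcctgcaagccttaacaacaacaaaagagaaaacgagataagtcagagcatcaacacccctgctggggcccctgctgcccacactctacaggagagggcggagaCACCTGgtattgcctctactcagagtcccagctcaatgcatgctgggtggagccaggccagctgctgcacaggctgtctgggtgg

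Cd3e, the epsilon chain, lies 11400 bases beyond Cd3d (chromosome 9, 44998740 to 45009627) and did not follow the pair. Its level was 262, 179 and 239.6 CPM in Nfkb2-/-, against 259, 186 and 174 CPM in wild type. Here wild-type replicate 1 was the highest of the wild-type libraries, and the ratio of Cd3e to Cd3g CPM was 1.06, 0.716 and 0.852 in Nfkb2-/-, against 1.82, 0.752 and 0.583 in wild type. Trac (chromosome 14, 54220521 to 54224206) was at 334, 288 and 346 CPM in Nfkb2-/-, against 192, 289.8 and 355 CPM in wild type, again lowest in wild-type replicate 1. Cd247, the zeta chain with the most activation motifs, was the steadiest of the complex at 226, 224 and 238 CPM in Nfkb2-/-, against 239.7, 231 and 261 CPM in wild type. However, 60.3% of its exon bases are also annotated to Gm16565 or Pou2f1. The library kit does not mark strand and the counting mode is not given, so the level of Cd247 is uncertain. Log2 fold changes were 0.14 (95% interval -0.54 to 0.83) for Cd3d, 0.18 (95% interval -0.40 to 0.76) for Cd3g, 0.14 (95% interval -0.33 to 0.61) for Cd3e, 0.21 (95% interval -0.30 to 0.72) for Trac and -0.09 (95% interval -0.36 to 0.18) for Cd247, with edgeR adjusted p of 0.889, 0.826, 0.838, 0.758 and 0.807. Without wild-type replicate 1 the values were -0.15, -0.07, 0.33, 0.00 and -0.10 in the same order, so the sign of Cd3d and Cd3g rested on that library.

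**Figure D2:**
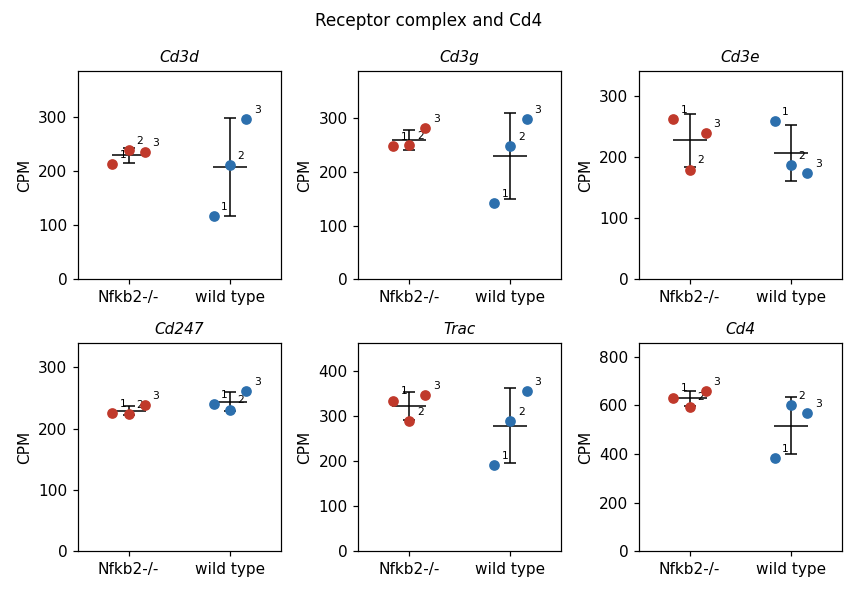
CPM of the receptor complex genes and Cd4 in each library (points, numbered by replicate; Nfkb2-/- left in red, wild type right in blue), with the mean and SD of 3 libraries in black. In Cd3d, Cd3g, Trac and Cd4 wild-type replicate 1 lies below all other libraries, and in Cd3e it does not.

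Of the 4 surface molecules that adjust receptor signals, 3 had a positive log2 fold change and none was called. Cd4, the co-receptor that brings Lck to the complex, was at 632, 595 and 659 CPM in Nfkb2-/-, against 383, 600.4 and 567 CPM in wild type (log2 fold change 0.28, SE 0.190, edgeR adjusted p = 0.595). Wild-type replicate 1 was again the lowest, and without it the log2 fold change was 0.11. Cd6, a scavenger-family receptor that binds CD166, was at 701, 661 and 701 CPM in Nfkb2-/-, against 607, 581 and 636 CPM in wild type. All 3 Nfkb2-/- libraries were above all wild-type libraries in Cd6 (log2 fold change 0.18, SE 0.129, edgeR adjusted p = 0.629). Cd5, an inhibitory relative of Cd6 that lies near it on chromosome 19, had overlapping levels, 594 ± 49.6 CPM (SD, n = 3) in Nfkb2-/-, against 613 ± 25.8 CPM (SD, n = 3) in wild type. Ptprc, which encodes the phosphatase CD45 that keeps Lck ready to act, was the most abundant member and among the least variable, at 1646, 1538 and 1580.3 CPM in Nfkb2-/-, against 1522, 1636 and 1584 CPM in wild type. Its libraries had the smallest ratio of highest to lowest among the 42, and its log2 fold change was 0.01 (95% interval -0.33 to 0.34).

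Among 6 kinases, 5 had a negative log2 fold change and none was called. Lck, the kinase that starts signalling, was at 401, 408 and 432 CPM in Nfkb2-/-, against 297, 482 and 548 CPM in wild type, with the wild-type libraries on both sides of all Nfkb2-/- libraries. Its log2 fold change was -0.10 (95% interval -0.61 to 0.41) and -0.32 without wild-type replicate 1 (edgeR adjusted p = 0.119). Fyn, a relative of Lck, and Zap70, which docks on phosphorylated CD3, averaged 411 ± 38.0 CPM (SD, n = 3) in Nfkb2-/-, against 449 ± 30.5 CPM (SD, n = 3) in wild type for Fyn and 246 ± 8.51 CPM (SD, n = 3) in Nfkb2-/-, against 241 ± 61.7 CPM (SD, n = 3) in wild type for Zap70. Txk, a Tec-family kinase, had 47.2 to 79.9 CPM in Nfkb2-/- and 47.0 to 74.8 CPM in wild type, nearly the same range. Prkcq, the protein kinase C theta that links the receptor to NF-kB, was at 181, 113 and 127 CPM in Nfkb2-/-, against 187, 175 and 238 CPM in wild type. Nfkb2-/- replicate 1 reached the wild-type range and the other 2 Nfkb2-/- libraries stayed below it. The log2 fold change of Prkcq was -0.51 (SE 0.205, unadjusted p = 0.0383 and adjusted p = 0.333 by edgeR), the lowest of the kinases. Csk, which holds Lck and Fyn inactive, was lower in all Nfkb2-/- libraries, at 208, 185 and 191 CPM in Nfkb2-/-, against 232, 209 and 235 CPM in wild type, with a log2 fold change of -0.21 (edgeR adjusted p = 0.517).

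The 13 adaptors and effectors held both ends of the range, Grap2 with the lowest log2 fold change of the 42 genes and Trat1 with the highest. Grap2, which encodes the adaptor GADS that joins SLP-76 to Lat, was at 382, 411 and 422 CPM in Nfkb2-/-, against 572, 697 and 616 CPM in wild type. All 3 Nfkb2-/- libraries lay below all wild-type libraries, and their mean of 405 ± 20.8 CPM was 0.644 times the wild-type mean of 628 ± 62.9 CPM (SD, n = 3 each). Its log2 fold change was -0.63 (95% interval -0.95 to -0.32, edgeR adjusted p = 0.0780), which missed the threshold, and the value ran from -0.70 to -0.56 with each library left out in turn. Trat1, which encodes TRIM, a transmembrane adaptor that associates with the receptor and its zeta chain, was at 84.5, 55.8 and 68.4 CPM in Nfkb2-/-, against 34.4, 41.1 and 40.7 CPM in wild type. Here all Nfkb2-/- libraries lay above all wild-type libraries, and the mean was 1.80 times that of wild type. The log2 fold change of Trat1 was 0.85 (95% interval 0.44 to 1.25, edgeR adjusted p = 0.0682), with a range from 0.68 to 0.98 over the same fits. Both genes passed the threshold in DESeq2, with adjusted p of 0.000454 for Grap2 and 0.00240 for Trat1. They passed it too in edgeR with no count filter, with adjusted p of 0.0315 and 0.00542 in that order, where 1.72% of all genes were called, 1.08% higher and 0.642% lower.

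The promoters of these 2 genes at the ends of the range follow, as RefSeq sequences of GRCm38.p6 covering chr16:48772013-48772312 (minus strand) for Trat1 and chr15:80623233-80623532 (plus strand) for Grap2, 5′ to 3′, 300 bases each. Capitals mark the Runx motif TGTGGT on either strand, printed as ACCACA where it lies on the other strand. Trat1 held 1 match and Grap2 none, and neither held the E-box or the kB motif (GGG, any 2 bases, TTTCC). The Grap2 start in RefSeq lies inside the longer GENCODE gene (chromosome 15, 80572594 to 80652854).
Trat1: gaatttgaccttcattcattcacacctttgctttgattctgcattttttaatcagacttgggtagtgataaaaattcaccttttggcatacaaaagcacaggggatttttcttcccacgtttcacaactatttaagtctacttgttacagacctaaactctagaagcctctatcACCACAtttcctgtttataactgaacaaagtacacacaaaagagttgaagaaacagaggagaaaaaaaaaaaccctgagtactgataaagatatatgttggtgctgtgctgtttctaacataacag
Grap2: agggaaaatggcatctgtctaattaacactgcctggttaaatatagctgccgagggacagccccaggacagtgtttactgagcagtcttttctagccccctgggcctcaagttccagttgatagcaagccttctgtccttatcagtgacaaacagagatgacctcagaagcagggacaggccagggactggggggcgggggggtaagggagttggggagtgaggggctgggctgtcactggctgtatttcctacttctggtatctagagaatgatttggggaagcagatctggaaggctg
Of the 42 genes, 36 had 1 or more promoters in the RefSeq table, 53 in all. The kB motif, on either strand, was in 0 of the 53 and in 1.63% of all 32851 promoters, the E-box in 18 of the 53 (34.0%) and in 20.2% of all, and the Runx motif in 8 of the 53 (15.1%) and in 16.8% of all. The E-box stood in the promoters of all 4 CD3 and zeta chain genes. Several promoters of a gene share sequence, and a match of letters is no evidence of binding.

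Lat and Pag1, both transmembrane scaffolds, changed their call with wild-type replicate 1. Lat, the platform that Zap70 phosphorylates, was at 269, 302 and 299 CPM in Nfkb2-/-, against 177, 408 and 516 CPM in wild type. The 3 Nfkb2-/- libraries were close together, inside a wild-type range that was set by replicate 1 at the bottom and replicate 3 at the top. With all libraries its log2 fold change was -0.34 (SE 0.338, edgeR adjusted p = 0.744), and without wild-type replicate 1 it was -0.67 (SE 0.127, edgeR adjusted p = 0.00568). Pag1, which holds Csk at the membrane, was at 98.5, 100.0 and 88.5 CPM in Nfkb2-/-, against 70.1, 147 and 117 CPM in wild type. Its log2 fold change was -0.22 with all libraries and -0.46 without wild-type replicate 1 (edgeR adjusted p = 0.779 and 0.0323). Grap2 and Trat1 were called in the same fit, at log2 fold changes of -0.70 and 0.77 (edgeR adjusted p = 0.00279 and 0.0134). These 4 of 42 members, 1 higher and 3 lower, made 9.52%, beside 9.04% of all genes called without that library, so the share was near the background.

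**Figure D3:**
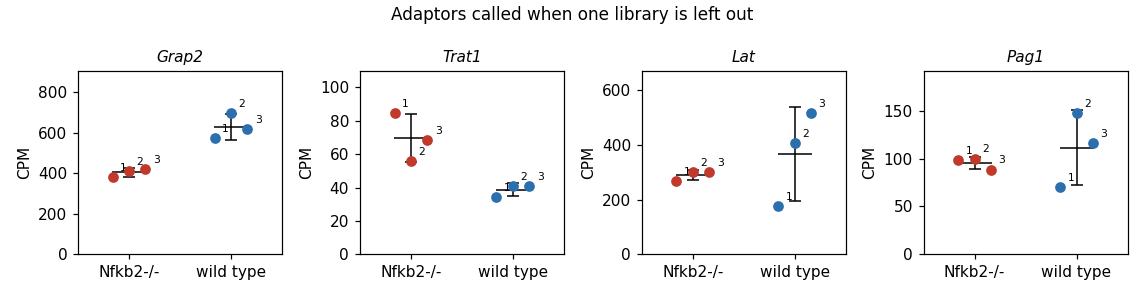
CPM of Grap2, Trat1, Lat and Pag1 in each library (points, numbered by replicate; Nfkb2-/- left in red, wild type right in blue), with the mean and SD of 3 libraries in black. The genotypes do not overlap in Grap2 and Trat1, whereas in Lat and Pag1 wild-type replicate 1 lies below all Nfkb2-/- libraries and the other 2 wild-type libraries above them.

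The remaining 9 adaptors and effectors gave no call in any fit. Rasgrp1, the exchange factor that activates Ras after diacylglycerol is made, was at 252, 211 and 234 CPM in Nfkb2-/-, against 366, 263 and 271 CPM in wild type. It was lower in every Nfkb2-/- library, with wild-type replicate 1 the highest of all, and its log2 fold change was -0.37 (edgeR adjusted p = 0.378) or -0.20 without that library. Vav1, an exchange factor for Rac, averaged 98.3 ± 11.2 CPM (SD, n = 3) in Nfkb2-/-, against 120.1 ± 16.4 CPM (SD, n = 3) in wild type, with 1 Nfkb2-/- library inside the wild-type range. Plcg1, the phospholipase that makes the calcium and diacylglycerol messengers, was at 320.1, 318 and 307 CPM in Nfkb2-/-, against 313, 380.3 and 387 CPM in wild type, with wild-type replicate 1 among the Nfkb2-/- values. Lcp2, which encodes SLP-76, the partner of GADS, was at 190.3, 184 and 182 CPM in Nfkb2-/-, against 118, 205 and 229.6 CPM in wild type. The Nfkb2-/- libraries of Lcp2 lay between wild-type replicate 1 and the other 2 wild-type libraries (log2 fold change 0.01, SE 0.230, edgeR adjusted p = 0.992), and without wild-type replicate 1 its log2 fold change was -0.23 (edgeR adjusted p = 0.217). Sit1, an inhibitory transmembrane adaptor, had the largest ratio of highest to lowest library of the 42 genes, at 61.9, 40.3 and 41.3 CPM in Nfkb2-/-, against 14.9, 39.1 and 61.4 CPM in wild type. Themis, a T-lineage regulator of signal strength, was low at 17.9 to 21.3 CPM in Nfkb2-/- and 19.4 to 34.6 CPM in wild type. Log2 fold changes were -0.03 for Nck1 and -0.04 for Was, which link the receptor to actin, and -0.03 for Sos1, the other Ras exchange factor.

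Bcl10 and Malt1, which act together to carry the signal from Prkcq to NF-kB, both had positive log2 fold changes that did not pass the test. Bcl10 was at 172, 179 and 201 CPM in Nfkb2-/-, against 102, 151 and 177 CPM in wild type. Malt1 was at 273, 290.4 and 237 CPM in Nfkb2-/-, against 152, 241 and 225 CPM in wild type. In both, the groups overlapped and the lowest library was wild-type replicate 1. Their log2 fold changes of 0.37 and 0.37 (edgeR adjusted p = 0.499 and 0.456) were 0.17 and 0.20 without that library.

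The NFAT factors, which calcineurin sends to the nucleus when calcium rises, were measured through 3 genes, none of them called. Nfatc2 was at 148, 151 and 172 CPM in Nfkb2-/-, against 97.1, 132 and 108 CPM in wild type. All Nfkb2-/- libraries were above all wild-type libraries, with a log2 fold change of 0.48 (95% interval 0.14 to 0.82, unadjusted p = 0.0113 and adjusted p = 0.187 by edgeR) that ran from 0.38 to 0.60 with each library left out. Nfatc1 averaged 292 ± 35.7 CPM (SD, n = 3) in Nfkb2-/-, against 279 ± 73.6 CPM (SD, n = 3) in wild type, and Nfatc3 423 ± 29.3 CPM (SD, n = 3) in Nfkb2-/-, against 365 ± 68.5 CPM (SD, n = 3) in wild type. Both overlapped between genotypes, and their log2 fold changes were 0.07 and 0.21. Rcan1, a calcineurin inhibitor whose gene NFAT itself induces, was the least abundant member, at 6.95, 5.70 and 7.08 CPM in Nfkb2-/-, against 10.6, 7.68 and 7.22 CPM in wild type. It was lower in every Nfkb2-/- library, with replicate 3 of the wild type close to the highest Nfkb2-/- value, and its log2 fold change of -0.37 (edgeR adjusted p = 0.559) was -0.18 without wild-type replicate 1.

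Of 8 phosphatases, ubiquitin ligases and lipid kinases that end the signal, 2 had a positive and 6 a negative log2 fold change, and none was called. Ubash3a, which encodes the phosphatase-like inhibitor STS-2, was at 339, 332 and 399 CPM in Nfkb2-/-, against 262, 302 and 284 CPM in wild type, higher in every Nfkb2-/- library (log2 fold change 0.34, unadjusted p = 0.0367 and adjusted p = 0.326 by edgeR). Its relative Ubash3b overlapped, with 103 ± 13.99 CPM (SD, n = 3) in Nfkb2-/-, against 98.2 ± 20.4 CPM (SD, n = 3) in wild type. The diacylglycerol kinases, which remove the messenger that activates Rasgrp1 and Prkcq, both had lower means in Nfkb2-/-. Dgka was at 584, 425 and 433 CPM in Nfkb2-/-, against 927, 543 and 626 CPM in wild type, with wild-type replicate 1 far above all others and Nfkb2-/- replicate 1 inside the wild-type range. Dgkz was at 347, 257 and 283 CPM in Nfkb2-/-, against 358, 351 and 407 CPM in wild type, without overlap. Log2 fold changes were -0.54 for Dgka and -0.33 for Dgkz (edgeR adjusted p = 0.368 and 0.401), or -0.28 and -0.36 without wild-type replicate 1. The ubiquitin ligase gene Cblb, whose protein restrains T cells that lack costimulation, was at 409, 497 and 519 CPM in Nfkb2-/-, against 712, 636 and 399 CPM in wild type. Wild-type libraries lay on both sides of the Nfkb2-/- libraries in Cblb, and in its relative Cbl, at 262 to 320.1 CPM in Nfkb2-/- and 246 to 405 CPM in wild type. Ptpn22, which dephosphorylates Lck and Zap70, averaged 452 ± 43.9 CPM (SD, n = 3) in Nfkb2-/-, against 472 ± 84.7 CPM (SD, n = 3) in wild type. Ptpn6, which encodes SHP-1, an inhibitory phosphatase that B cells and myeloid cells also express, averaged 42.4 ± 7.03 CPM (SD, n = 3) in Nfkb2-/-, against 50.6 ± 11.96 CPM (SD, n = 3) in wild type. Across replicates 1 to 3 Ptpn6 was at 50.1, 36.5 and 40.5 CPM in Nfkb2-/-, the reverse of the order of the B cell sums there (532, 594 and 568 CPM). In wild type it was at 37.6, 61.1 and 53.3 CPM, the same order as the B cell sums. Most of each sum was Ighm, at 494, 540 and 503 CPM in Nfkb2-/-. Other B cell genes were mixed there: Ighd shared that order (7.28, 14.2 and 12.5 CPM) and Cd79a did not (3.48, 4.93 and 7.57 CPM). The part of B cells in the level of Ptpn6 was not tested.

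**Figure D4:**
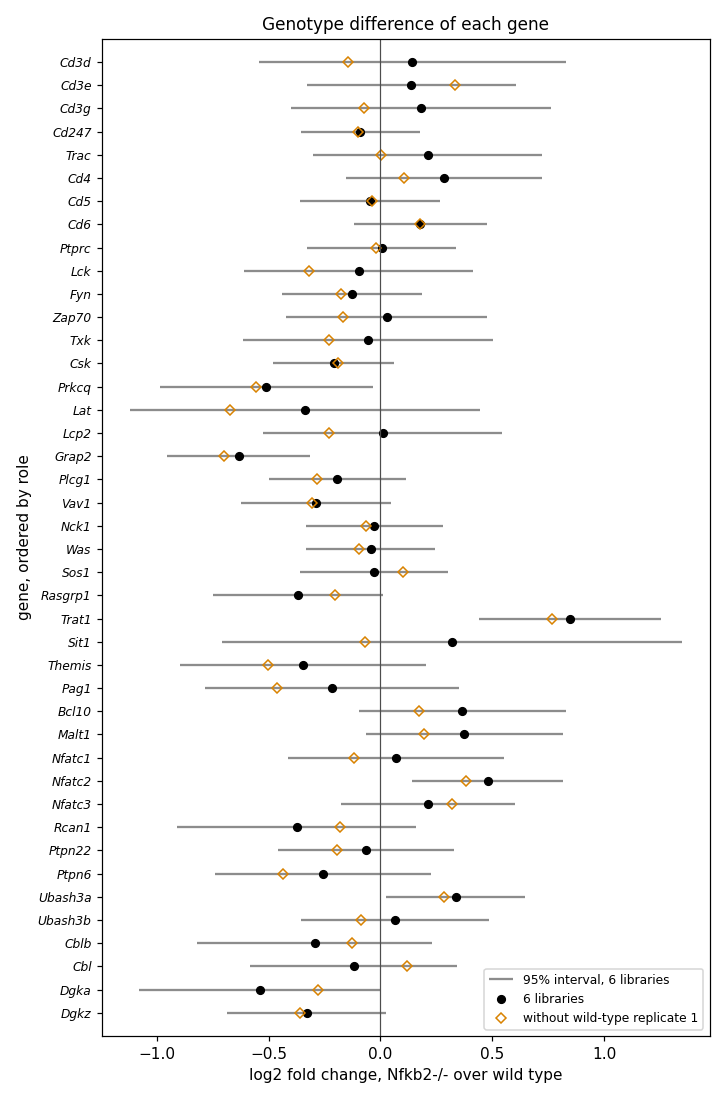
Log2 fold change of each gene, Nfkb2-/- over wild type, by edgeR: black points and grey 95% intervals use 6 libraries, open diamonds leave out wild-type replicate 1. In 10 of the 42 genes the sign differs between the 2 fits, and Grap2 and Trat1 keep their places at the ends.

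Wild-type replicate 1 was the lowest of the 6 libraries for 20 of the 42 genes, and for 31.5% of all genes tested. It was below the mean of the other 2 wild-type libraries in 32 of the 42 genes (76.2%), against 49.4% of all genes tested, with a median difference of -0.22 on the log2(CPM + 1) scale, against 0.01 for all genes. The difference went with gene length: all 8 members with under 3 kb of merged exons were lower in that library, from -0.16 for Was to -1.65 for Sit1, with Lat at -1.37 and Cd3d at -1.10. Among all genes tested the median was -0.23 for 2736 genes under 2 kb and 0.14 for 2074 genes over 8 kb. Across the 42 members, which share these 3 libraries, log2 length and the difference correlated at r = 0.41, and across 13345 genes at r = 0.19. Members of 3 kb and more were low in that library as well, with medians of -0.11 for 13 genes of 3 to 5 kb, -0.16 for 10 genes of 5 to 8 kb and -0.16 for 11 genes over 8 kb, against 0.03, 0.11 and 0.14 for all genes in those classes. Single members varied within them: Pag1, with 9580 bases of merged exons, was at -0.89 and Cd3e, with 4080 bases, at 0.52. Its part in the genotype differences was not tested, beyond leaving that library out.

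**Figure D5:**
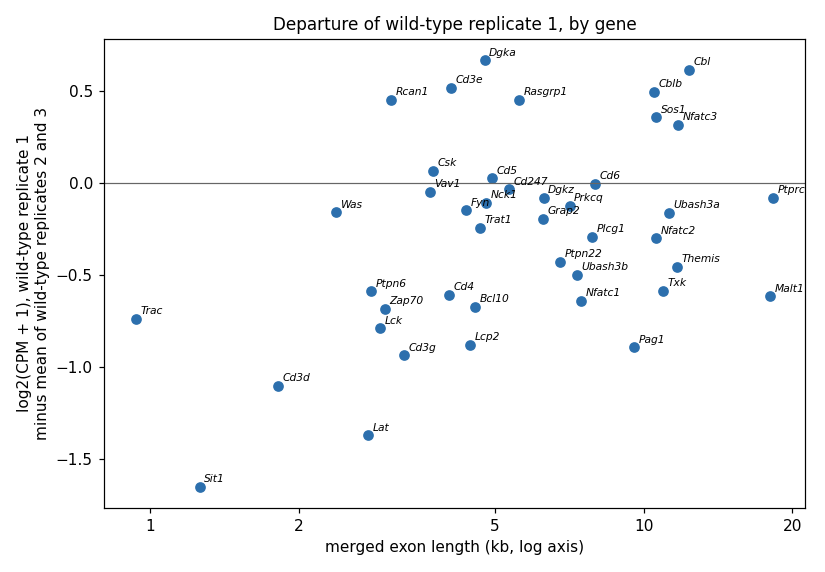
Each point is 1 of the 42 genes: its level in wild-type replicate 1 minus the mean of wild-type replicates 2 and 3, on the log2(CPM + 1) scale, against the length of its merged exons in kb on a log axis. The 8 genes under 3 kb all lie below 0, with Sit1 lowest at -1.65, and 32 of all 42 genes do.

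Per length, levels of the members spanned a wide range, with Trac at the top and Rcan1 and Themis at the bottom in both genotypes. In CPM per kb of merged exons, Trac was the highest at 345 in Nfkb2-/- and 298 in wild type, followed in Nfkb2-/- by Cd4 at 156 and Lck at 141, for which wild type had 128 and 151. Cd3d had 126 CPM per kb in Nfkb2-/- and 114 in wild type, above Cd3g (79.5 and 70.2), Cd3e (55.7 and 50.6) and Cd247 (42.99 and 45.8), so the levels of these transcripts differed on this scale. Rcan1 (2.13 in Nfkb2-/- and 2.75 in wild type) and Themis (1.68 and 2.14) were the lowest. Merged exons count every annotated transcript, retained introns included, which lowers this value for genes with many annotated forms. Besides Cd247, 10 members (Cd3e, Lck, Lat, Lcp2, Plcg1, Themis, Nfatc3, Ptpn6, Dgka and Dgkz) share 0.854% to 6.96% of their exon bases with another gene, and counts of reads there are uncertain.

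Of 87 further genes of the pathway, named for their role, 86 passed the filter and 1 was called: Rcan3, which encodes another member of the calcineurin regulator family of Rcan1. Rcan3 had 54.4, 48.7 and 53.8 CPM in Nfkb2-/-, against 111, 95.3 and 95.3 CPM in wild type. Every Nfkb2-/- library lay well below every wild-type library, at a log2 fold change of -0.94 (SE = 0.122; adjusted p = 0.0157 by edgeR), in a direction in which 0.405% of all genes were called. By edgeR the adjusted p was 0.0890, 0.127 and 0.118 when Nfkb2-/- replicate 1, 2 or 3 was left out, and 0.0504 when wild-type replicate 2 was, and the log2 fold change stayed between -0.98 and -0.87 with each library left out in turn. With the replicate number as a block, 2 of the 86 were lower and 0 higher, where 0.697% and 1.47% of all genes were called in those directions. Without wild-type replicate 1, 9 were lower and 2 higher, where 4.44% and 4.60% of all genes were called in those directions. Of the 86 genes, 42 had a positive log2 fold change, and the median was -0.02. The genotypes did not overlap in 18 genes lower and 4 higher in Nfkb2-/-, where the background is 9.9% and 10.7% of all genes, and 13 lower and 2 higher had an unadjusted p under 0.05 by edgeR, where it is 6.35% and 7.25%. The members and these genes were chosen with results known, so the counts are a description.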

How the data were processed

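Per the file headers and values, the deposited files hold raw counts, a whole number of reads for each gene. FastQC, HISAT2, HTSeq, DESeq2 and the genome GRCm38 appear in the submitters' processing notes. Versions and the counting mode are not given in the sources used here, and the library kit named in the labels' protocols does not mark strand. Of 55573 identifiers, 55480 matched GENCODE M21.

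The main test was edgeR 4.0.16 in R 4.3.3 (filterByExpr, TMM, robust quasi-likelihood fit on genotype alone), with Benjamini-Hochberg adjustment over all 13347 genes and a threshold of 0.05. It was set beside scaling by RLE or upper quartile, other count filters (none, or 1 CPM in 3 libraries), DESeq2 1.42.0, voom in limma 3.58.1, the replicate block and fits without each library. All 42 members and Nfkb2 are named, with called genes of the further list. The members and lists were chosen with earlier results of these data known, and of 6 promoter motifs searched 3 are given. The code was tested on simulated counts. Figures were drawn with matplotlib 3.10.9.

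Between libraries of a genotype, chi-square per degree of freedom was 5.82 to 106, above sampling noise. The highest values, 70.4 and 106, were of the pairs with wild-type replicate 1. Each library was counted as a sample, but spread of this kind cannot show that the libraries came from separate chimeras. For the pairing, deviations from the genotype means correlated at r = 0.392, 0.315 and 0.135 for replicates 1, 2 and 3. All 3 passed the limit of 0.1 for treating the numbers as pairs, although the labels do not say what a number marks and Nfkb2-/- replicate 3 reached 0.286 with wild-type replicate 2. The printed fold changes, intervals and p-values come from the unpaired fit unless the block is named.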

Additional observations from a re-analysis of the deposited data

How the results depend on the processing

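With every alternative scaling, filter and tool, and with each library left out in turn, Grap2 stayed negative and Trat1 positive. Called genes, higher and lower in Nfkb2-/-, were 135 and 54 (1.01% and 0.405% of genes tested) with all libraries. They were 292 and 174 (1.08% and 0.642% of 27114 genes) with no count filter. DESeq2 called 428 and 252 (3.21% and 1.89%), and the fit with the replicate block 196 and 93 (1.47% and 0.697%). Of the 42 members 1 higher and 1 lower were called with no filter and by DESeq2, and 0 with the block, which changed no member's call. Of the further genes (87 tested with no filter, 86 otherwise) 2 were lower with no filter, 5 by DESeq2 and 2 with the block, and 0 were higher in each, beside the shares of all genes just given. With each library left out, counts ran from 6 to 628 higher and 1 to 606 lower over all genes, 0 to 1 higher and 0 to 3 lower among members, and 0 to 2 higher and 0 to 9 lower among further genes. The upper ends are without wild-type replicate 1, where 4.60% of all genes were called higher and 4.44% lower, and the cause was not tested. Signs near 0 turned for Ptprc (-0.0021 with upper-quartile scaling, -0.0029 with no filter) and Lcp2 (-0.0020 with no filter). Log2 fold changes that changed sign with a library left out ran from -0.15 to 0.48 for Cd3d, from -0.073 to 0.41 for Cd3g, from -0.11 to 0.016 for Cd5, from -0.021 to 0.030 for Ptprc, from -0.32 to 0.083 for Lck, from -0.17 to 0.17 for Zap70, from -0.30 to 0.098 for Txk, from -0.23 to 0.20 for Lcp2, from -0.11 to 0.017 for Nck1, from -0.11 to 0.027 for Was, from -0.14 to 0.10 for Sos1, from -0.071 to 0.83 for Sit1, from -0.46 to 0.027 for Pag1, from -0.12 to 0.25 for Nfatc1, from -0.19 to 0.055 for Ptpn22, from -0.089 to 0.20 for Ubash3b and from -0.26 to 0.12 for Cbl. Fits with 2 libraries in a genotype hold fewer samples. With 3 a genotype, a gene that was not called may still differ. The 95% intervals are for single genes, without adjustment for the number of genes tested, and set no limit of detection. Those of Grap2 (-0.95 to -0.32) and Trat1 (0.44 to 1.25) excluded 0, and neither gene was called in the main test.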
